A study of Mus musculus with 12 samples.

Results

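Transcript levels of 35 genes of glycolysis and of glucose and lactate transport were described in mouse Notch1-driven T-cell acute lymphoblastic leukaemia (T-ALL) and in normal thymocytes, with and without the gene Mbd2. The genes were taken as a set by name: the glucose carriers Slc2a1 and Slc2a3, the isoforms of each glycolytic step, the enzymes that set the level of the bisphosphate activating phosphofructokinase, the kinases that switch off pyruvate dehydrogenase, the lactate carriers Slc16a1 and Slc16a3, and the reverse-step enzymes Fbp1 and G6pc3. Of the 35 genes, 32 had a probe set that the array annotation assigns to a single gene, out of 18194 genes with such a probe set. Gpi1, Pfkfb1 and Eno1 had none and were not analysed here. Where a gene had several probe sets, the brightest over the 12 arrays stood for it. Eno2 and Pdk4 did not pass the filter on low values and lay below 35.3, the intensity of the brightest control probe set without a target, on all arrays. The other 30 were tested, among 15421 genes in all.

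Each of 4 groups had 3 Affymetrix expression arrays. The leukaemia groups were GFP+ bone marrow cells sorted from recipient mice when more than 50% of their white blood cells were GFP+, the transplanted cells being MBD2+/+ (wild type) or MBD2-/- (knockout). The thymocyte groups were CD4+CD8+ double-positive (DP) cells sorted from the thymus of steady-state MBD2+/+ or MBD2-/- mice. The labels state no age, sex, litter or number of independent leukaemias behind the 3 arrays of a group, so the p-values measure the spread between these samples.

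Glycolysis breaks glucose down to pyruvate. Hexokinase traps glucose in the cell, phosphofructokinase commits it to the pathway, aldolase splits the sugar, and the lower steps harvest energy and end at pyruvate kinase. Lactate dehydrogenase turns pyruvate into lactate and regenerates the cofactor that the pathway needs, and proton-linked carriers export the lactate. Dividing lymphocytes and leukaemia cells are known for high glycolytic flux, whereas DP thymocytes are mostly small resting cells. MBD2 is a protein that binds methylated CG dinucleotides and recruits repressor complexes.

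Several features of the libraries bear on the values below. Mbd2 itself read 742 to 957 in wild-type and 41.4 to 66.0 in knockout leukaemia, and 993 to 1372 against 64.4 to 84.3 in the DP cells. Notch1 read 1346 to 1614 in wild-type and 4188 to 6435 in knockout leukaemia. In the DP cells it read 1379 to 1725 in wild type and 1330 to 1752 in knockout. The part of Notch1 level in the results was not tested. Xist is expressed from the inactive X of female cells. It read 3846, 4819 and 3915 in the wild-type leukaemias and 28.7 to 45.7 on the other 9 arrays. So in leukaemia sex and genotype cannot be told apart. Between wild-type leukaemia and wild-type DP cells, sex and cell type cannot be told apart either, and the interaction has the same limit. The 3' to 5' signal ratio of the Gapdh control probe sets, which rises as RNA is degraded, ran from 0.969 to 2.48 in wild-type and from 0.964 to 2.98 in knockout leukaemia. It was 1.08 to 3.68 in wild-type and 1.12 to 3.33 in knockout DP cells. The 5 arrays with signal from added poly-A control transcripts (2 wild-type and 1 knockout leukaemia, 2 wild-type DP) had the low ratios, 0.964 to 1.14, and the other 7 had 1.12 to 3.68. All 11 T-lineage markers with a probe set had group means above 35.3 in all 4 groups. Between leukaemia genotypes 4 of the 11 passed as lower in knockout, 0 as higher, and 7 did not pass. By sign alone 5 of the 11 were higher. Cd8b1 read 101, 42.4 and 43.9 in knockout leukaemia against 2442 to 4631 in wild-type leukaemia. Cd8a read 132 to 388 against 2123 to 3082, and Cd4 91.8 to 94.2 against 253 to 300.

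**Figure D1:**
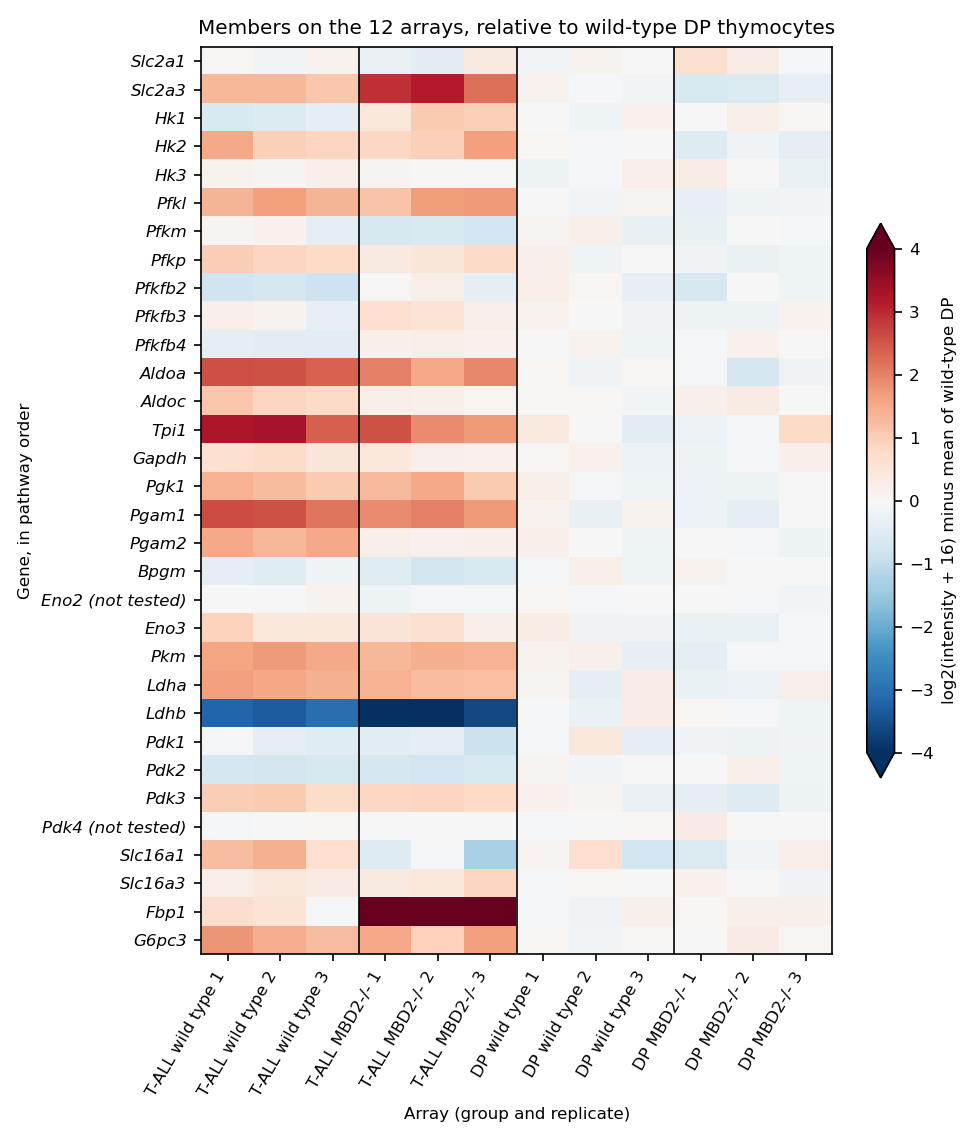
Heat map of 32 genes (rows, in pathway order) on the 12 arrays (columns), as log2(intensity + 16) minus the mean of the 3 wild-type DP arrays, with colours saturating beyond 4 in either direction. Most rows of the lower pathway are red in the 6 leukaemia columns, Ldhb is blue there, and Fbp1 is dark red in the 3 knockout leukaemia columns.

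Loss of Mbd2 in leukaemia went with unequal changes along the pathway. The glucose carrier Slc2a3, the hexokinase Hk1, Pfkfb2 and Pfkfb4 were higher in knockout leukaemia, and so was Fbp1, the enzyme that reverses the phosphofructokinase step. The lactate carrier Slc16a1, the aldolases Aldoa and Aldoc, the phosphofructokinase isoform Pfkm and the mutase Pgam2 were lower. In all, 5 of the 30 genes rose and 5 fell at an adjusted p under 0.05 (limma, adjusted over all genes tested), and 20 did not pass. Over all genes 9.25% were higher and 7.04% lower. The median log2 difference, knockout minus wild type, was -0.15 over the 30 genes and -0.06 over all genes. With each array centred on its 75th percentile, 5 of the 30 rose and 9 fell, and the share of higher genes among all calls went from 56.8% to 45.2%. For each of these 10 genes the 2 groups did not overlap. Their direction was therefore bound to be the same within the arrays with poly-A control signal (1 knockout against 2 wild type) and within those without (2 against 1). That split is thus no check on RNA quality. Markers of other cells also differed between these groups. The summed level of 8 mast cell markers was 140 to 161 in wild type and 7362 to 8413 in knockout, mostly Cpa3, which read 18.1 to 24.3 against 6912 to 8070, and 6 of the 8 had means below 35.3 in knockout. That of 10 neutrophil markers was 1187 to 2078 in wild type and 290 to 958 in knockout, and that of 8 erythroid markers 2644 to 3348 and 2329 to 3619. That of 8 monocyte and macrophage markers was 350 to 385 and 243 to 314, and that of 7 B-lineage markers 179 to 192 and 693 to 1021, with Blk the brightest in knockout. That of 5 thymic epithelial markers was 126 to 150 and 277 to 461, and that of 5 megakaryocyte markers 228 to 263 and 389 to 463. The first was moved by Epcam (22.8 to 43.0 against 169 to 357), the only 1 of 5 tested to pass. The second was moved by Itga2b (83.3 to 114 against 220 to 321), the only 1 of 4 tested to pass. The part of these markers in the results was not tested. In sorted bulk samples, fewer cells of a type and less RNA per cell cannot be told apart.

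**Figure D2:**
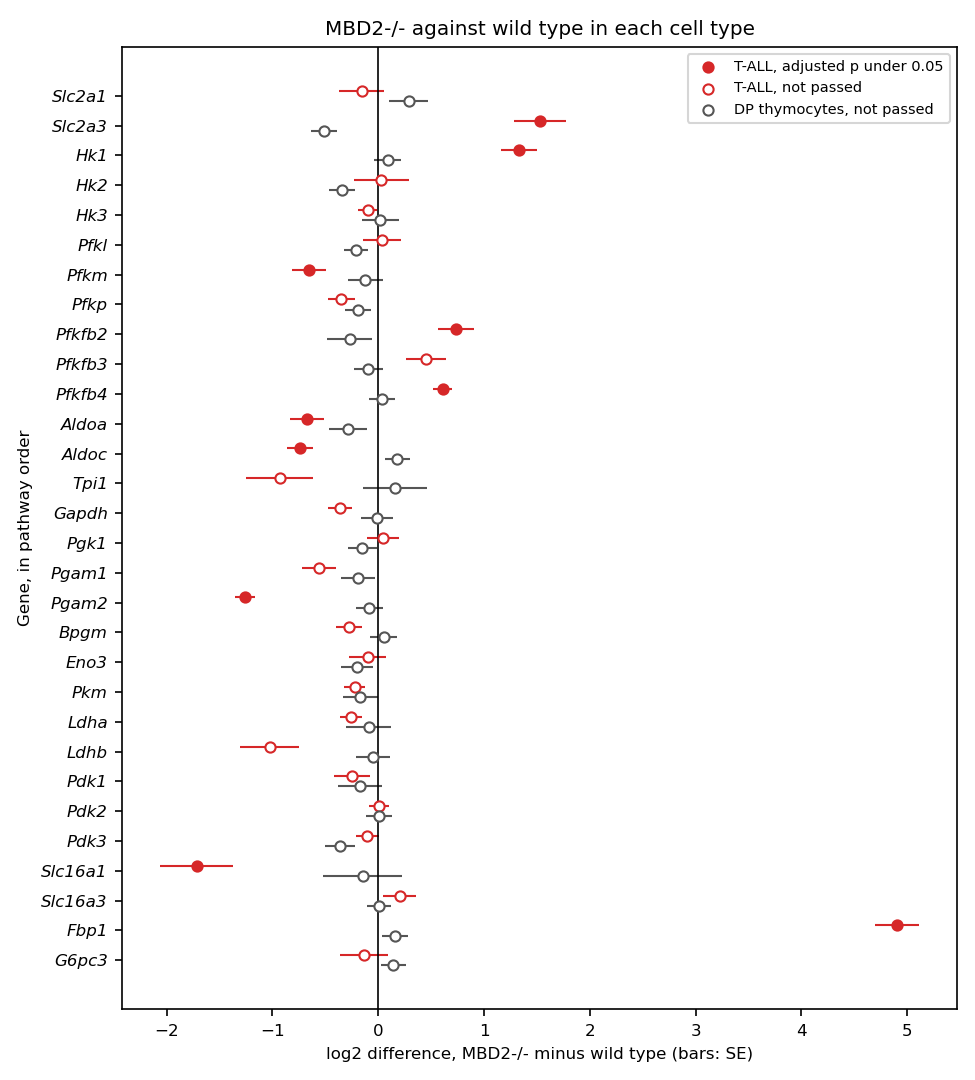
Log2 difference, knockout minus wild type, with its standard error (bars) for the 30 tested genes in leukaemia (red) and DP thymocytes (grey), filled where the adjusted p is under 0.05. In leukaemia 10 points are filled, from -1.72 for Slc16a1 to 4.90 for Fbp1, and in DP cells none is.

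Fbp1 encodes fructose bisphosphatase, a gluconeogenic enzyme of liver and kidney that opposes phosphofructokinase. It read 40.2, 34.5 and 17.0 on the wild-type leukaemia arrays and 1251, 1512 and 1277 on the knockout arrays. The group means were 30.5 ± 12.1 and 1347 ± 144 (SD, n = 3 each), and the groups did not overlap. Only 1 wild-type array lay above 35.3, so the size of the change has only a lower bound, at least 36.4-fold on the intensity scale, taking 35.3 in place of any lower value. The fit on the values as deposited gave 4.90 (SE 0.21, adjusted p = 1.98e-05), with 2 of the 3 wild-type values below that control. G6pc3, the widely expressed glucose phosphatase, did not pass (295 ± 58.1 and 270 ± 70.8, n = 3, adjusted p = 0.76).

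For glucose uptake, Slc2a3 (GLUT3, the high-affinity carrier of neurons and lymphocytes) read 1370, 1360 and 1161 in wild-type leukaemia and 4228, 4956 and 2533 in knockout leukaemia. The lowest knockout array was above the highest wild-type array. The difference was 1.53 (SE 0.25, adjusted p = 0.0067), 2.88-fold on the scale of log2(value + 16), which is the scale of all folds given below unless stated. A further Slc2a3 probe set gave 1.65 (adjusted p = 0.0014), and 2 others with group means of 20.5 or less did not pass. Slc2a1 (GLUT1), the carrier usually tied to lymphocyte activation, did not pass, at 223 ± 21.3 and 204 ± 66.3 (n = 3, adjusted p = 0.70).

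Among hexokinases, Hk1, the mitochondria-bound housekeeping isoform, read 638, 674 and 745 in wild type and 1351, 2069 and 1903 in knockout. These groups were also separate, and the difference was 1.33 (SE 0.17, adjusted p = 0.0026). A dimmer Hk1 probe set (59.3 and 84.4) gave 0.30 and did not pass (adjusted p = 0.74). Hk2, the isoform induced in many tumours, was 167 ± 48.2 and 173 ± 60.2 with overlapping arrays (adjusted p = 0.96). Hk3, typical of myeloid cells, was 51.9 ± 2.0 and 47.4 ± 2.9 (adjusted p = 0.55), while the summed neutrophil markers were lower in the knockout group.

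At the phosphofructokinase step only the muscle isoform Pfkm passed among the 3 isoforms. It read 247, 257 and 173 in wild type and 140, 141 and 126 in knockout, a difference of -0.65 (SE 0.16, adjusted p = 0.034). The call was lost without any of the 3 knockout arrays or without wild-type array 1 or 2, with adjusted p from 0.076 to 0.129. The platelet isoform Pfkp differed by -0.35 (adjusted p = 0.13) and the liver isoform Pfkl by 0.04 (adjusted p = 0.92).

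The Pfkfb enzymes make and remove the bisphosphate that activates phosphofructokinase. Pfkfb4 read 82.1, 77.6 and 77.5 in wild type and 128, 134 and 125 in knockout, with little spread in either group and a difference of 0.61 (SE 0.09, adjusted p = 0.0043). Pfkfb2 read 35.3, 40.4 and 34.6 against 77.4, 89.0 and 52.9, a difference of 0.74 (SE 0.17, adjusted p = 0.027). Its wild-type values were at the level of the brightest no-target control, so the change is at least 1.93-fold on the intensity scale. The Pfkfb2 call was lost without any single array other than knockout array 3 (adjusted p 0.066 to 0.0896), and another probe set of similar brightness gave 0.09 (adjusted p = 0.60). Pfkfb3, the isoform with the strongest kinase activity, was 147 ± 32.7 and 206 ± 32.6, a difference of 0.45 that did not pass (adjusted p = 0.16). It passed with replicate number as a block (adjusted p = 0.022), a block chosen from these same data.

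Both measured aldolases fell. Aldoa, the main isoform outside liver and brain, read 3909, 3767 and 3316 in wild type and 2652, 1839 and 2468 in knockout, a difference of -0.67 (SE 0.16, adjusted p = 0.031). Its other 4 probe sets gave -0.43 to -0.90, none of which passed. The Aldoa call was lost without wild-type array 1 or 2 or knockout array 2 (adjusted p 0.0513 to 0.119). Aldoc, the brain isoform, read 59.4, 47.4 and 42.9 against 25.3, 23.8 and 21.0, with all 3 knockout arrays below 35.3. The difference was -0.74 (SE 0.12, adjusted p = 0.0078), at least 1.4-fold on the intensity scale.

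In the lower pathway the muscle-type mutase Pgam2 fell. It read 139, 122 and 139 in wild type and 48.4, 44.8 and 46.0 in knockout, with no overlap. The difference was -1.26 (SE 0.10, adjusted p = 0.00024). The broadly expressed Pgam1 (1505 ± 260 and 1010 ± 110, n = 3) differed by -0.56 with groups that did not overlap, and missed the threshold at an adjusted p of 0.059. With replicate number as a block its adjusted p was 0.013. Tpi1, which interconverts the triose phosphates, read 4078, 4234 and 2243 in wild type and 2533, 1579 and 1382 in knockout. The groups overlapped, and the difference of -0.93 did not pass (adjusted p = 0.098) but did with the block (adjusted p = 0.011). Another Tpi1 probe set, with a mean of 1417 against 739, passed at -0.93 (adjusted p = 0.019). Gapdh, read from a control probe set, was 10258 ± 857 and 7987 ± 774 (adjusted p = 0.087). Pgk1, an X-linked gene, gave 4219 ± 498 and 4373 ± 715 (adjusted p = 0.89). Bpgm (adjusted p = 0.19), Eno3 (0.78) and Pkm (0.19) did not pass either.

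At the fate of pyruvate, Ldhb, the heart-type subunit that favours lactate oxidation, read 489, 439 and 552 in wild-type and 225, 154 and 363 in knockout leukaemia. All knockout arrays were below all wild-type arrays, but the difference of -1.02 (SE 0.28) had an adjusted p of 0.051. Its adjusted p was 0.0076 with replicate number as a block, and of its 3 other probe sets 1 passed (-0.996, adjusted p = 0.012) and 2 did not (-1.11, adjusted p = 0.14, and -1.13, adjusted p = 0.056). Ldha, the muscle-type subunit that favours lactate production, was 6126 ± 441 and 5127 ± 371 (adjusted p = 0.17). None of Pdk1, Pdk2 and Pdk3, which phosphorylate and silence pyruvate dehydrogenase, passed (adjusted p 0.42 to 0.98).

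Slc16a1 (MCT1), a carrier of lactate and pyruvate, fell the most of the 30 genes. It read 2984, 3437 and 2008 in wild type and 882, 1238 and 509 in knockout, so even the highest knockout array was below the lowest wild-type array. The difference was -1.72 (SE 0.34, adjusted p = 0.016), 3.28-fold lower. In both genotypes the lowest value was on an array without poly-A control signal, but in knockout so was the highest (1238). The difference was -1.84 within the arrays with the signal and -1.32 within those without it. The call was lost without wild-type array 1 (adjusted p = 0.069) or 2 (adjusted p = 0.076). A much dimmer Slc16a1 probe set passed at -0.56 (adjusted p = 0.021). Slc16a3 (MCT4), the hypoxia-responsive exporter, was above 35.3 on 1 array only, and did not pass (adjusted p = 0.46).

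**Figure D3:**
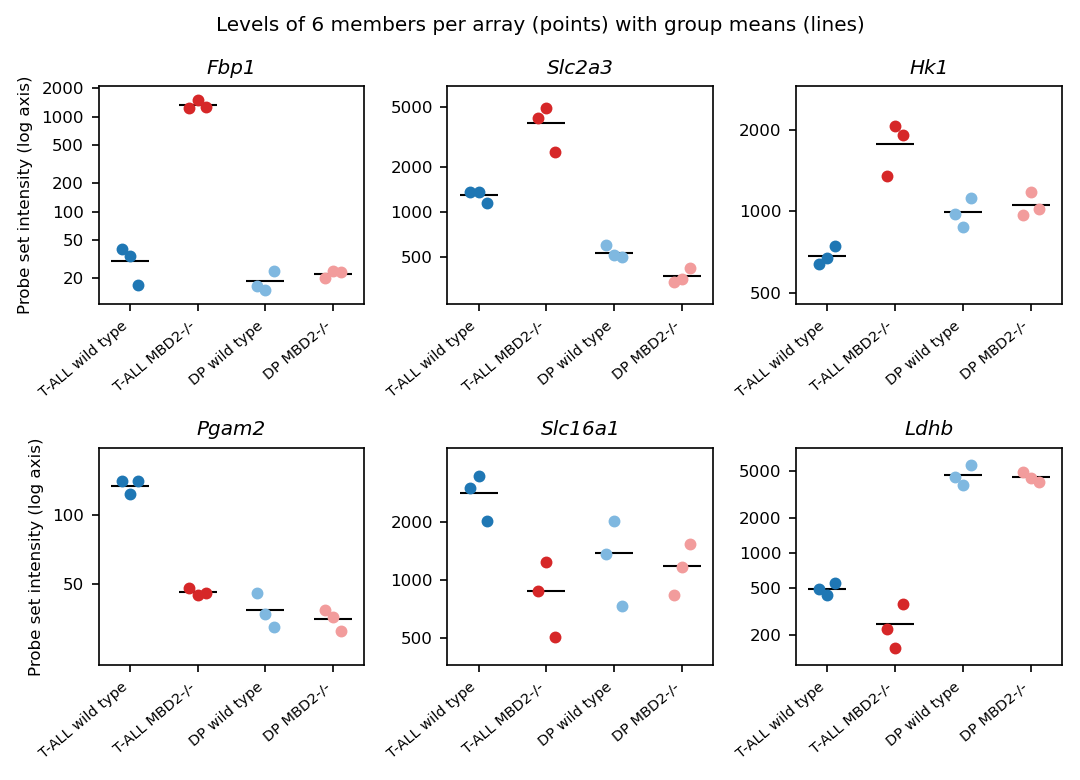
Probe set intensity (log axis) of Fbp1, Slc2a3, Hk1, Pgam2, Slc16a1 and Ldhb on each array (points) with the group mean (line) in the 4 groups. Knockout leukaemia stands alone at the top for Fbp1, Slc2a3 and Hk1, wild-type leukaemia at the top for Pgam2, and both leukaemia groups lie below both DP groups for Ldhb.

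Because MBD2 binds methylated CG, the CG content before the starts of the changed genes is shown for the 4 of the 10 that have a single start in the RefSeq table (GRCm38.p6), as the 250 bases before the start on the gene's strand with CG in capitals. Methylation and MBD2 binding were not measured here. The windows are chr13:62888283-62888532 on the minus strand for Fbp1, chr11:5803797-5804046 on the minus strand for Pgam2, chr9:108991652-108991901 on the plus strand for Pfkfb4 and chr3:104638414-104638663 on the plus strand for Slc16a1.
Fbp1: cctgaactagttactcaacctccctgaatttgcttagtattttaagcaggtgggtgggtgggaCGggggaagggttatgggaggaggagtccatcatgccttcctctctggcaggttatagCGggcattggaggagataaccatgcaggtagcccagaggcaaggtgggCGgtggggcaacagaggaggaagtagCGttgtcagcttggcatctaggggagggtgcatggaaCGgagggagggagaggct
Pgam2: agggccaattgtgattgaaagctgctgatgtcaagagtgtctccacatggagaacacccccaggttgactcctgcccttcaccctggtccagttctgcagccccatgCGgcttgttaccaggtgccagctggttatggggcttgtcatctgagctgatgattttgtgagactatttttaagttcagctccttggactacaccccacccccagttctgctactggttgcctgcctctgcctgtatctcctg
Pfkfb4: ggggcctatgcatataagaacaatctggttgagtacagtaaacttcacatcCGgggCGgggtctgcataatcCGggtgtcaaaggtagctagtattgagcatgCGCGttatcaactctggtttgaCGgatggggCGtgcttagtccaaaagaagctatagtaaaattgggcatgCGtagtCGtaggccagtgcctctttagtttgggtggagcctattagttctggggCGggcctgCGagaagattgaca
Slc16a1: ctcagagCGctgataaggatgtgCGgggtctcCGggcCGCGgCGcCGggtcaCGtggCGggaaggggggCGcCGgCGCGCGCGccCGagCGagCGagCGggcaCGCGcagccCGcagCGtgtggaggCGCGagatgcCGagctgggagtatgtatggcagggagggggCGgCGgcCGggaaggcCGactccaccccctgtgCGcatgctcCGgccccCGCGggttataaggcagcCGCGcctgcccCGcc
Fbp1 has 5 CG, and 49.6% of all 32851 windows of this length have that many or fewer. Pgam2 has 1 CG (18.8% of windows have no more), Pfkfb4 has 11 (66.5%) and Slc16a1 has 37 (98.1%). Both genes that rose (Fbp1, Pfkfb4) thus lie between both that fell (Pgam2, Slc16a1) in CG count. Slc16a1 also holds the letters CACGTG, the E-box that MYC with its partner MAX can bind. Searched on both strands, CACGTG occurs in 7 of 34 genes of the set with a window and in 6.86% of all genes with a window. ACGTG, a form of the core of the hypoxia response element, which CACGTG contains, occurs in 16 of 34 and in 18.5% of all genes. Other forms were not searched. Genes with several listed starts have several windows, and 53 windows belong to the 34 genes. Counted by window, CACGTG occurs in 13.2% of those 53 and 6.02% of all windows, and ACGTG in 37.7% and 16.6%. Both motifs contain CG, and windows of the set hold a median of 13 CG against 6 over all windows. A match is only a description of letters.

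In DP thymocytes none of the 30 genes passed between genotypes (limma), and 3 had an unadjusted p under 0.05. Over all genes 0.013% were higher and 0.013% lower, with 717 of 15421 at an unadjusted p under 0.05. The smallest p belonged to Slc2a3, at 601, 517 and 501 in wild type and 344, 357 and 423 in knockout. These groups did not overlap, and the direction was opposite to that in leukaemia, with a difference of -0.51 (SE 0.12, adjusted p = 0.76). Hk2 differed by -0.34 and Pdk3 by -0.36, Pfkl by -0.21 and Pfkp by -0.19, all at an adjusted p of 0.98. The differences of the 30 genes ran from -0.51 to 0.29 with a median of -0.09. Fbp1 was between 15.0 and 23.7 on all 6 DP arrays, below the brightest no-target control. Slc16a1 had a wide spread, at 1358, 2017 and 738 in wild-type and 835, 1163 and 1529 in knockout DP cells.

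The difference between the 2 genotype effects, tested as an interaction over all 12 arrays, passed for 7 of the 30 genes. It was positive, the effect in leukaemia being above that in DP cells, for Fbp1, Slc2a3, Hk1, Pfkfb2 and Pfkfb4, and negative for Aldoc and Pgam2. Over all genes 7.91% passed as positive and 4.75% as negative. With each array centred on its 75th percentile, 3 positive and 3 negative differences passed: Pfkfb2 (adjusted p = 0.051) and Pfkfb4 (adjusted p = 0.12) no longer did, and Slc16a1 did (adjusted p = 0.036). That centring moved the median over all genes from -0.05 to -0.18 and the share of positive calls from 62.5% to 48.0%. Slc16a1 (-1.57, adjusted p = 0.10), Ldhb (-0.98, adjusted p = 0.10), Tpi1 (-1.09, adjusted p = 0.20), Pfkm (-0.53, adjusted p = 0.20) and Aldoa (-0.39, adjusted p = 0.42) did not pass in the main fit. That fit did not show their effect to differ between the cell types, but for some the outcome depended on the setting. With poly-A signal as a blocking factor Slc16a1 (adjusted p = 0.027), Tpi1 (0.014) and Pfkm (0.028) passed. With probe sets averaged Slc16a1 (0.037), Ldhb (0.047) and Tpi1 (0.043) did.

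Against DP thymocytes, leukaemia cells had higher levels of most of the pathway in either genotype. In wild type 16 of the 30 genes were higher in leukaemia, 5 were lower and 9 did not pass, where 19.7% of all genes were higher and 14.3% lower. In knockout 17 were higher, 4 lower and 9 did not pass, where 18.6% of all genes were higher and 11.0% lower. The median difference, leukaemia minus DP, was 0.75 in wild type and 0.63 in knockout, against 0.06 and 0.01 over all genes. The 2 comparisons share no arrays, and 13 genes were higher in both. These were 81.2% of the 16 and 76.5% of the 17, where over all genes the shared higher calls were 55.1% and 58.5%. Marker sums differed here too: neutrophil markers summed to 219 to 492 in wild-type and 238 to 543 in knockout DP cells, and erythroid markers to 801 to 1317 and 1002 to 1110, below the leukaemia sums given above. The T-lineage sum was 28891 to 34237 and 21100 to 23821 in wild-type and knockout leukaemia and 49923 to 65772 and 47614 to 60617 in the DP groups. Their part in these differences was not tested, and in the wild-type comparison sex and cell type cannot be told apart.

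**Figure D4:**
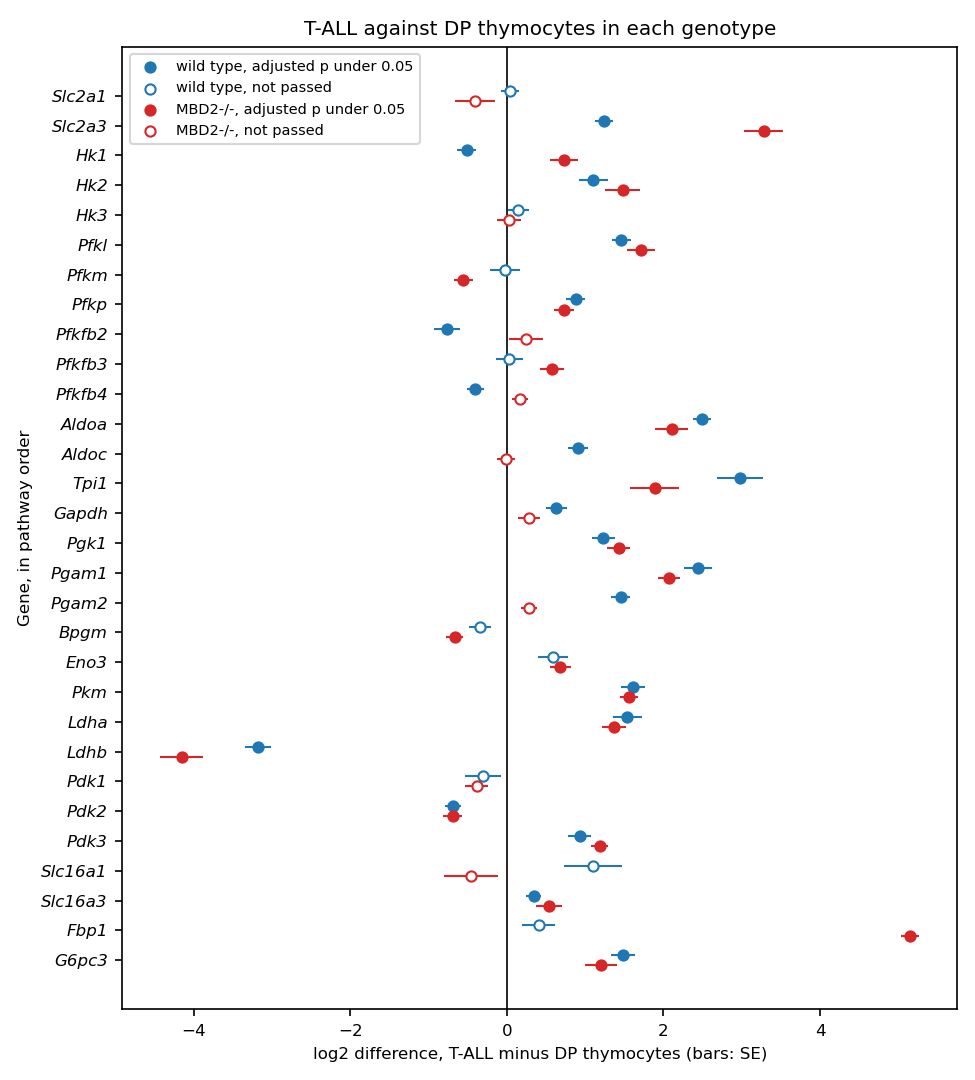
Log2 difference, leukaemia minus DP thymocytes, with its standard error (bars) for the 30 tested genes in wild type (blue) and knockout (red), filled where the adjusted p is under 0.05. Most points from Aldoa to Ldha lie right of 0 in both genotypes, Ldhb lies left at -3.18 and -4.15, and Hk1 changes sides.

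In wild type the 5 largest increases were those of Tpi1, Aldoa, Pgam1, Pkm and Ldha, all between the aldolase step and lactate. Tpi1 was 7.87-fold higher in wild-type leukaemia than in wild-type DP cells (2.98, SE 0.30, adjusted p = 0.00037), the DP arrays reading 556, 420 and 308. In knockout, where DP cells read 349, 405 and 715, it was 3.70-fold higher (1.89, adjusted p = 0.0038). Every leukaemia array was above every DP array. Aldoa read 679, 570 and 667 in wild-type and 618, 394 and 577 in knockout DP cells, and was higher in leukaemia by 2.49 (SE 0.12) and 2.11 (SE 0.21). Pgam1 read 1689, 1619 and 1208 in wild-type and 1022, 1113 and 895 in knockout leukaemia. In DP cells it read 293, 212 and 289, and 219, 200 and 268. Its differences were 2.44 and 2.07, again with no overlap of groups.

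Pkm, which makes pyruvate, read 3669, 3983 and 3507 in wild-type leukaemia and 1324, 1378 and 960 in wild-type DP cells. In knockout it read 3069, 3333 and 3159 against 941, 1154 and 1129, and the differences of 1.61 and 1.56 were close to each other. Ldha showed the same order, at 6535, 6185 and 5658 against 2275, 1582 and 2563 in wild type (1.54, SE 0.19). In knockout it read 5545, 5001 and 4835 against 1749, 1777 and 2460 (1.37, SE 0.16). Pgk1 was higher by 1.23, from 2080, 1696 and 1592 to 4690, 4267 and 3698, in wild type. In knockout it was higher by 1.43, from 1513, 1533 and 1773 to 4354, 5097 and 3668.

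Ldhb went the other way and had, of the 30 genes, the largest difference in wild type and the largest after Fbp1 in knockout. It read 4420, 3821 and 5658 in wild-type and 4861, 4392 and 4049 in knockout DP cells, so each DP array was far above each leukaemia array. It was 9.04-fold lower in wild-type leukaemia (-3.18, SE 0.17, adjusted p = 3e-05) and 17.8-fold lower in knockout leukaemia (-4.15, SE 0.27, adjusted p = 5.21e-05). Leukaemia and DP cells thus differed in opposite directions in the 2 lactate dehydrogenase subunits.

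At the entry of the pathway, Slc2a3 was higher in leukaemia by 1.24 (SE 0.12) in wild type and by 3.28 (SE 0.25, 9.70-fold) in knockout. Hk2 was low in DP cells, at 71.5, 63.9 and 66.4 in wild type and 42.1, 59.7 and 48.6 in knockout. In leukaemia it read 222, 144 and 135, and 131, 145 and 242, which is higher by 1.11 and 1.48 (adjusted p = 0.0033 and 0.0024). Hk1 was lower in wild-type leukaemia than in wild-type DP cells (-0.52, adjusted p = 0.017; DP arrays 980, 872 and 1120), and in knockout it was higher (0.73, adjusted p = 0.019; DP arrays 966, 1175 and 1015). The wild-type Hk1 call was lost without leukaemia array 1 or 2 or DP array 1 (adjusted p 0.0526 to 0.0641). The knockout call was lost without leukaemia array 2 or DP array 1 or 3 (adjusted p 0.0532 to 0.0692). Slc2a1 passed in neither genotype (adjusted p = 0.86 and 0.30).

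Among phosphofructokinases, Pfkl read 409, 502 and 408 in wild-type and 345, 512 and 516 in knockout leukaemia. It read 148, 138 and 160, and 114, 129 and 138, in DP cells, so it was higher by 1.46 and 1.71. Pfkp was higher by 0.88 and 0.73, and Pfkm passed only in knockout, where it was lower by -0.56 (adjusted p = 0.011), a call lost without DP array 2 (adjusted p = 0.0504). Some dimmer probe sets went the other way without passing: a Pfkl probe set gave -0.12 and -0.15, and a Pfkp probe set gave -0.26 in knockout. With its probe sets averaged, Pfkp did not pass in knockout (0.26, adjusted p = 0.083). Pfkfb2 (-0.77) and Pfkfb4 (-0.41) were lower in wild-type leukaemia, the latter call being lost without any single array except DP array 3 (adjusted p 0.0554 to 0.0907). In knockout neither passed, and Pfkfb3 was higher by 0.58, a call lost without leukaemia array 1 or 2 or DP array 1 or 2 (adjusted p 0.0717 to 0.104).

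For the remaining genes, Pgam2 was higher in wild-type leukaemia by 1.46 (DP arrays 46.0, 37.3 and 32.8, at least 3.39-fold on the intensity scale) and did not pass in knockout (adjusted p = 0.083). Aldoc was higher in wild-type leukaemia by 0.91 and Gapdh by 0.63, and neither passed in knockout. The Gapdh call was lost with its probe sets averaged (0.83, SE 0.40, adjusted p = 0.16). Bpgm, the red cell enzyme that diverts a glycolytic intermediate, was lower in knockout leukaemia by -0.67 (adjusted p = 0.0036). Its other 2 probe sets gave -0.19 and -0.12 and did not pass, and the call was lost with all 3 averaged (-0.33, adjusted p = 0.40). Eno3, the muscle enolase, was higher in knockout leukaemia by 0.68 (adjusted p = 0.0073). In wild type its difference was 0.58, with an adjusted p of 0.054 that became 0.0017 with replicate number as a block. G6pc3 read 358, 283 and 243 in wild-type and 297, 190 and 323 in knockout leukaemia. In DP cells it read 99.1, 86.6 and 96.3, and 95.2, 122 and 100, so it was higher by 1.48 and 1.20 with no overlap.

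Pdk3, an X-linked kinase of pyruvate dehydrogenase, was higher in leukaemia by 0.93 and 1.19. Pdk2 was lower by -0.69 in both genotypes, with all 6 leukaemia arrays below 35.3 and 2 of 3 DP arrays above it in each genotype. Pdk1, a kinase of the same family that hypoxia induces, did not pass on its brightest probe set (-0.31, adjusted p = 0.38, in wild type and -0.39, adjusted p = 0.088, in knockout). A second Pdk1 probe set had means of 294 in leukaemia and 847 in DP cells in wild type and of 284 and 690 in knockout, and was lower by -1.48 and -1.24 (adjusted p = 0.00011 and 0.0010). A dimmer one was lower by -1.46 and -1.50, and the fourth did not pass in either genotype. With its 4 probe sets averaged Pdk1 was lower in leukaemia in both genotypes (-0.79, adjusted p = 0.0037, and -0.93, adjusted p = 0.00067), so its probe sets disagreed. Slc16a1 was higher by 1.11 in wild-type leukaemia with overlapping arrays (adjusted p = 0.058, or 0.00082 with replicate number as a block). In knockout it did not pass (-0.46, adjusted p = 0.39). Slc16a3 passed with differences of 0.34 and 0.54, but 11 of its 12 values were below 35.3, so no fold is given. The calls on Slc16a3 were lost without any of several arrays: in wild type all but leukaemia array 1 (adjusted p 0.0592 to 0.115), and in knockout all but leukaemia array 1 (adjusted p 0.0579 to 0.136). Fbp1 passed only in knockout, by 5.15 (SE 0.12, adjusted p = 9.11e-07), at least 38.0-fold on the intensity scale.

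Related pathways were counted beside the set. Between leukaemia genotypes 1 of 6 pentose phosphate genes passed, the transaldolase Taldo1, which fell by 0.74 in knockout. Of 9 genes of pyruvate entry and oxidation 2 fell, Dlat (-0.93), a core subunit of pyruvate dehydrogenase, and its phosphatase Pdp2 (-0.70). Of 3 further gluconeogenic genes 1 rose, Pck2 (1.75, adjusted p = 0.0038), the mitochondrial enzyme that makes phosphoenolpyruvate, from 132 to 140 up to 351 to 737. Of 14 other genes of the hexose and monocarboxylate transporter families and their chaperones, Slc16a10 rose (0.92) and Slc2a4 fell (-0.46). None of 7 tissue-restricted isoforms passed, with 1 at an unadjusted p under 0.05. In DP cells no gene of these lists or of the 2 lists described next passed between genotypes. The genes with the smallest adjusted p per list there ranged from 0.89 to 0.98.

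Of 17 regulators of glycolytic genes 3 rose in knockout leukaemia. They were Epas1 (HIF-2 alpha), at 32.1 to 54.0 in wild type and 271 to 388 in knockout (2.66, adjusted p = 0.00020), Txnip, an arrestin-like protein that lowers glucose uptake, at 305 to 403 and 698 to 1086 (1.36, adjusted p = 0.0042), and the hypoxia-induced hydroxylase Egln3 (0.57). Hif1a and Myc did not pass. Of 16 hypoxia targets outside glycolysis 3 rose, Car9 (2.04), Ndrg1 (1.76) and Ero1a (0.73), and 2 fell, among them Mxi1 (-1.33). All these counts stand against the same shares of all genes, 9.25% higher and 7.04% lower.

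Between wild-type leukaemia and wild-type DP cells 5 of 6 pentose phosphate genes were higher, led by Tkt (1.69) and Pgls (1.20), where 19.7% of all genes were higher and 14.3% lower. In knockout 2 of 6 were higher, Tkt (1.14) and Pgls (0.94), where 18.6% of all genes were higher and 11.0% lower. Myc read 328 to 919 in wild-type and 259 to 911 in knockout leukaemia and 35.4 to 110 in DP cells, differences of 2.76 and 2.87 (adjusted p = 0.0026 and 0.0030). In the 3 groups with both kinds of array, its lowest value was on an array without poly-A control signal. In knockout leukaemia its highest value, 911, was on such an array too. Txnip was lower in wild-type leukaemia than in wild-type DP cells (-2.02, adjusted p = 0.00016). Regulators in all were 2 higher and 5 lower of 17 in wild type, and 4 higher and 2 lower in knockout. Of 16 hypoxia targets 3 were higher and 2 lower in wild type, led by Mif (2.25), and 7 were higher and 2 lower in knockout, led by Ndrg1 (2.39). The wild-type count of higher hypoxia targets, 3 of 16, was close to the 19.7% of all genes, and the regulators' 2 of 17 lay below it.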

How the data were processed

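Total RNA (7 µg per sample) was labelled as biotin cRNA for 1-colour Affymetrix arrays, per the labels' protocols. The deposited file holds linear intensities per probe set, 3.07 to 21620; no source used here states how the authors summarised and normalised them. Medians of the arrays lay between 5.71 and 5.79 on the log2 scale, so no normalisation was added. No detection calls were used, and the number of arrays limits the precision.

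Of 45101 probe sets, 34945 were assigned to a single gene by the platform annotation, 932 to several, 9160 to none, and 64 were controls; 34744 matched a GRCm38.p6 table by gene identifier and 0 were renamed. Each gene took its brightest single-gene probe set over the 12 arrays; Gapdh had only control probe sets. A gene entered the test if it exceeded an array's 25th percentile on 3 or more arrays. Tests were run on log2(value + 16) with limma 3.58.1 in R 4.3.3 (lmFit, eBayes), each pair of groups in its own fit and the interaction over all 12 arrays, with Benjamini-Hochberg adjustment over all genes and a threshold of 0.05. Log2 differences are limma coefficients with standard errors (SE). The fits were tested on simulated data. Near-identical copies and pseudogenes can share signal with Gapdh, Aldoa, Tpi1, Pgk1, Pgam1 and Ldhb, whose probe sets include several marked as cross-hybridising.

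Samples of the 2 leukaemia genotypes with the same number deviated from their group means together (r = 0.40, 0.24 and 0.55). So did those of wild-type leukaemia and wild-type DP cells (0.45, 0.44 and 0.59), and replicate number was therefore tried as a block. Those of the DP genotypes (-0.52, 0.15 and -0.49) and of the knockout groups (-0.39, 0.09 and -0.43) did not. No label ties numbers to a batch. In wild-type and knockout leukaemia and wild-type DP cells, array 1 had poly-A control signal and a Gapdh ratio of 0.964 to 1.083. Array 3 had no signal and a ratio of 2.482 to 3.682. For these arrays number and RNA quality cannot be told apart. The block was chosen from these values, so a lower p with it is not independent support.

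The gene set, the related lists and the alternatives were chosen with earlier results of these data known. Every gene of the set that passed is given; array values are given for up to 12 per comparison by largest difference, the 5 smallest p where fewer than 5 passed, and up to 4 passing genes per related list. Alternatives were other normalisations, filters, added constants, variance models, probe sets, blocks, an RNA integrity covariate and leaving out each array. Promoter windows are RefSeq's. Figures were drawn with matplotlib 3.10.9.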

Additional observations from a re-analysis of the deposited data

Results flagged for a closer look

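The genotype difference was tested to differ between leukaemia and DP thymocytes (an interaction in limma over all 12 arrays) for 7 genes. The knockout effect in leukaemia minus that in DP cells was 4.74 for Fbp1 (adjusted p = 3.45e-07), 2.04 for Slc2a3 (adjusted p = 0.00067), 1.24 for Hk1 (adjusted p = 0.0032), 1.01 for Pfkfb2 (adjusted p = 0.043) and 0.57 for Pfkfb4 (adjusted p = 0.020). It was -1.18 for Pgam2 (adjusted p = 0.00030) and -0.92 for Aldoc (adjusted p = 0.0031). For Slc2a3 all 3 knockout leukaemias were above all wild-type leukaemias, and all 3 knockout DP samples were below all wild-type DP samples. Taken alone, the Slc2a3 difference between DP genotypes did not pass (limma, adjusted p = 0.76). The other 6 had overlapping DP groups. Fbp1 was below the brightest no-target control on every DP array, Aldoc on every DP array too, and Pfkfb2 was within reach of it in wild-type leukaemia.

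The Pfkfb2 difference lost its call without any of 9 arrays (0.82 to 1.06, adjusted p 0.0638 to 0.106), namely all leukaemia arrays but knockout 3, wild-type DP 1 and 2, and knockout DP 1 and 3. That of Pfkfb4 lost it without wild-type leukaemia 2 (0.56, adjusted p = 0.052) or knockout DP 1 (0.53, adjusted p = 0.052). Under other settings Pfkfb2 lost its call with quantile normalisation, 75th percentile centring, no filter, 64 added or probe sets averaged (0.28 to 1.01, adjusted p 0.051 to 0.116). Pfkfb4 lost its call with 75th percentile centring (0.44, adjusted p = 0.12), quantile normalisation (0.46, adjusted p = 0.0504) or a variance trend with robust estimation (0.57, adjusted p = 0.061).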

How the results depend on the processing

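The number of genes of the set that passed between leukaemia genotypes, 10, fell to 6 without wild-type leukaemia 1 and to 6 without wild-type leukaemia 2, and was 6 to 11 over the 6 fits that each left out an array. Without either of these arrays Pfkm, Pfkfb2, Aldoa and Slc16a1 lost their calls. Leaving out an array gave 18 to 21 for wild-type leukaemia against DP, 18 to 20 for knockout, 0 to 0 between DP genotypes and 5 to 8 for the interaction (7), which rose to 12 with the 3' to 5' ratio as a covariate, when Ldhb, Pfkfb3, Pfkm, Slc16a1 and Tpi1 passed too. Replicate number as a block, chosen from the data of 2 comparisons, gave 14 between leukaemia genotypes and 23 for wild-type leukaemia against DP. It gave 19 for knockout, 8 for the interaction and 0 between DP genotypes. The block changed no call of a gene of the set beyond the 6 given with it, with these exceptions. The knockout comparison with DP cells lost Pfkfb3 and Slc16a3, and the interaction gained Ldhb. The counts of the set moved by less than 1.5 times under the other alternatives run. Over all genes, the 2512 that passed between leukaemia genotypes were 3899 with the block and 1422 without wild-type leukaemia 2, and the 4 between DP genotypes were 0 with the block and 13 with all 12 arrays in the fit.

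Other probe sets reversed the sign of leukaemia minus DP for Slc2a3 (-0.14 in wild type and -0.001 in knockout, a probe set below 35.3 in every group), Pfkl (-0.12 and -0.15) and Pfkp (-0.26 in knockout), none passing. Between leukaemia genotypes, of 120 refits of the 10 called genes under other settings 117 kept the call; adding 64 cost Pfkfb2 (0.44) and Pfkm (-0.52), and averaging probe sets cost Pfkfb2 (0.20). For leukaemia against DP, 75th percentile centring ended the wild-type calls of Hk1 (-0.44, adjusted p = 0.061) and Pfkfb4 (-0.32, adjusted p = 0.078) and the knockout call of Slc16a3 (0.48, adjusted p = 0.079). A variance trend with robust estimation ended that of Pfkfb4 (-0.41, adjusted p = 0.051), and adding 64 those of Slc16a3 in both genotypes (0.15 and 0.24). The knockout call of Slc16a3 was also lost with no filter (adjusted p = 0.064) and its wild-type call with all 12 arrays in the fit (adjusted p = 0.075), and the knockout call of Pfkfb3 with poly-A signal as a blocking factor (adjusted p = 0.085). Averaging probe sets ended the calls of Bpgm, Gapdh and Pfkp given above and made Pgam2 pass in knockout (0.28, adjusted p = 0.046). Levels below 35.3 cannot be told from background, which limits Fbp1, Aldoc, Pfkfb2, Pdk2 and Slc16a3.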
